A study of Mus musculus with 24 samples.

Results

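The genes described here are 7 mRNAs for RNA-binding proteins, Cirbp, Rbm3, Hnrpdl, Sfpq, Nono, Ddx46 and Upf1, followed in natural killer (NK) cells that carry or lack FcRγ. They were picked by name among the 38215 rows of the gene table because several of them had differed by genotype in cells from untreated spleen and not in the other states. The genotype values that led to the choice are therefore given as a description, without p-values, and their counts of calls stand beside the share of all genes called, with nothing read from them. All 7 genes passed the filter on low counts in every comparison.

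NK cells were profiled by bulk sequencing of poly(A) RNA from mouse, in 24 libraries that form 6 groups of 4. The groups are WT and KO cells, where KO is the loss of FcRγ, the ITAM-bearing adaptor encoded by Fcer1g, each from spleen in the naive state, from spleen after IL-15 treatment, and from tumour-bearing lung. The treatment label of the 8 lung libraries is also Naive; "naive" below means the naive spleen groups alone. By the labels, a group's 4 libraries are biological replicates. Facts not given in the sources used here include whether each library comes from its own animal, how and for how long IL-15 was given, the tumour, the age of the mice and the making of the allele. IL-15 is the cytokine on which NK cells depend for survival and which drives their growth and priming.

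Cirbp and Rbm3 encode the cold-inducible RNA-binding proteins, small proteins with an RNA recognition motif and a glycine-rich tail whose amounts rise at mild hypothermia and fall with heat, and which bind mRNAs and alter their stability, polyadenylation and translation. Hnrpdl encodes an hnRNP that coats nascent transcripts in the nucleus. Sfpq and Nono encode DBHS proteins, which pair with each other, act in splicing, transcription and DNA repair, and build paraspeckles, nuclear bodies assembled on the long noncoding RNA Neat1. Ddx46 encodes the DEAD-box helicase that admits the U2 snRNP to the branch site of an intron, and Upf1 encodes the helicase at the centre of nonsense-mediated mRNA decay (NMD), the pathway that degrades transcripts with premature stop codons. Several such genes limit their own mRNA through alternative exons or introns that lead to decay, so their mRNA level and splicing are tied to each other.

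RefSeq promoter windows (build GRCm38.p6) matched 6 of the 7 genes, all but Rbm3. The sequences of Cirbp, Upf1 and Sfpq are shown because these genes gave the largest naive genotype difference, the largest response to IL-15 among the 7, and the largest naive difference in the opposite direction. Each runs 5′ to 3′ on the gene's strand and lies within the 250 bases before a RefSeq start, with exon bases left off. Capitals mark matches, on either strand, to the mild cold response element TCCCCGCC, the GC box GGGCGG and the CCAAT box; letters of the first and second can overlap. Cirbp is at chr10:80167589-80167777 on the plus strand, Upf1 at chr8:70353280-70353529 on the minus strand and Sfpq at chr4:127021051-127021300 on the plus strand.
Cirbp: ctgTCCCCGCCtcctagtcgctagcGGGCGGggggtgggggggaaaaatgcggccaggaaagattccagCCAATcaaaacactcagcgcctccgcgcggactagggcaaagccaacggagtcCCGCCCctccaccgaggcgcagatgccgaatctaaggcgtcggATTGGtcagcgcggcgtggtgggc
Upf1: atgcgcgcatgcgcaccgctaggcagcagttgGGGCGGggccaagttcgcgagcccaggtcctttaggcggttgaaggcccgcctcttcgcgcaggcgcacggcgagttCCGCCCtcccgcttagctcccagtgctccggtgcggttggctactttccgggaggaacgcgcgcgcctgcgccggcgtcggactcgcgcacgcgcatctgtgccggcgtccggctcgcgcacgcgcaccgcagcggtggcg
Sfpq: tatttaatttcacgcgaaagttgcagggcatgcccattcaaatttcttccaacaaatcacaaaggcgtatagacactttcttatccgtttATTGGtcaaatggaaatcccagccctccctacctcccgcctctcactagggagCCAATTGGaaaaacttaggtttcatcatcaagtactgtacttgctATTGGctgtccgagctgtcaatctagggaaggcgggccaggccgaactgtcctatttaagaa

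The upstream Cirbp window, the one shown, held TCCCCGCC at 247 to 240 bases before its start. Neither the downstream Cirbp window (72.4% G or C, before a later RefSeq start) nor any other member's window held it. Among all 32851 RefSeq promoter windows 4.64% did. The GC box occurred in windows of Cirbp, Upf1, Ddx46 and Hnrpdl (32.7% of all windows), and the CCAAT box in those of Cirbp, Sfpq and Nono (33.8%). The Sfpq stretch was 45.2% G or C, the Upf1 stretch 72.8% and the upstream Cirbp window 65.6%, against a median of 52.4% over all promoters. Neither the heat shock element (GAA, TTC and GAA in a row with 2 bases between neighbours), present in 0.466% of windows, nor the E-box CACGTG, in 6.02%, was found in a member's window. A match says only that the letters are there.

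The annotation places Cirbp (ENSMUSG00000045193) at chr10:80165985-80172786, Rbm3 (ENSMUSG00000031167) at chrX:8138975-8145880, Hnrpdl (ENSMUSG00000029328, now named Hnrnpdl) at chr5:100033577-100039664 and Sfpq (ENSMUSG00000028820) at chr4:127021324-127037013 in GRCm38. Nono (ENSMUSG00000031311) is at chrX:101429318-101448591, Ddx46 (ENSMUSG00000021500) at chr13:55635027-55681256 and Upf1 (ENSMUSG00000058301) at chr8:70331522-70353273. GENCODE M21 lists a transcript marked for NMD for Cirbp (1 of 7 transcripts), Rbm3 (2 of 11) and Hnrpdl (2 of 7), and for none of the other 4 genes; 28.6% of 12476 tested protein-coding genes have one. Retained-intron transcripts are listed for Cirbp (4), Nono (4), Rbm3 (2), Hnrpdl (2) and Ddx46 (1). The table holds 1 value per gene, so these forms were not measured apart. Rbm3 shares 94 exon bases with the antisense gene Rbm3os and Upf1 shares 131 with Cers1 and Gdf1 on the opposite strand; the kit keeps strand, but with the strand setting of the counting not given in the sources used here, reads of these neighbours cannot be told apart. Sfpq shares 216 with Gm12940 on its own strand, a gene at 1.29 to 22.5 CPM over the 24 libraries. Gdf1 stood at 0 CPM in every group but KO naive, where it reached at most 0.169 CPM.

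Depth and cell identity were as follows. Totals ran from 9.68 to 32.1 M expected counts per library, and KO naive replicate 1 (9.68 M) and WT lung replicate 1 (9.77 M) were the shallow ones. Fcer1g stood at 253 to 795 CPM (a gene's count scaled to the total of its library) in the 12 WT libraries and at 1.25 to 16.2 CPM in the 12 KO libraries. All 9 NK cell markers were read in every group, with summed levels of 18740 to 20900 CPM in WT naive, 14600 to 17370 in KO naive, 7277 to 9507 under IL-15 and 11450 to 17260 in lung. The 8 T cell markers summed to 24.2 to 31.97 CPM in WT naive and 47.0 to 75.2 CPM in KO naive, with 7 of the 8 read in both, to at most 14.2 CPM under IL-15 and to at most 37.3 CPM in lung; their part in the results was not tested. Myeloid markers reached 140 CPM in WT lung and 635 CPM in KO lung against at most 27.3 CPM in any spleen library, and lung epithelial markers reached 404 CPM in lung. Fewer cells of a type and less RNA per cell cannot be told apart in bulk libraries.

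The 7 mRNAs were plotted in every library.

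**Figure D1:**
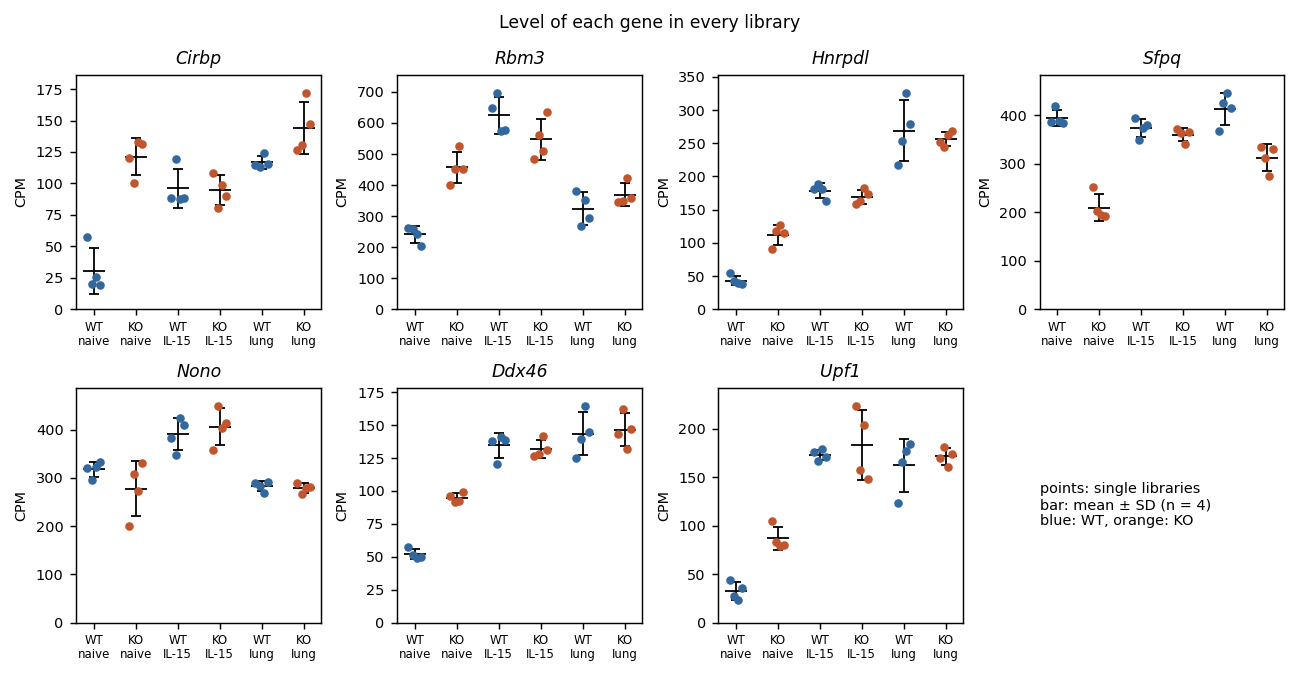
Level of each gene in CPM (linear axis from 0) in the 24 libraries, with points for single libraries, blue for WT, orange for KO, and bars for the group mean ± SD (n = 4). WT naive cells sit alone at the bottom for Cirbp, Rbm3, Hnrpdl, Ddx46 and Upf1, whereas KO naive cells are lowest for Sfpq.

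Of the cold-inducible pair, Cirbp had the widest naive genotype difference. In WT naive spleen it stood at 57.7, 19.9, 25.98 and 19.2 CPM in replicates 1 to 4, and in KO naive spleen at 121, 100.3, 133 and 131 CPM. Replicate 1 of WT was more than any other WT naive library, yet still below every KO library. The fitted KO minus WT difference was 1.96 ± 0.26 log2 units (± SE), or 3.90-fold, and it was 2.45 without WT naive replicate 1. Under IL-15 Cirbp read 88.7, 119, 87.6 and 88.6 CPM in WT and 108, 80.6, 99.0 and 89.8 CPM in KO, a difference of −0.04 ± 0.25. In lung it read 115, 113, 124 and 115 CPM in WT and 127, 131, 172 and 147 CPM in KO, a difference of 0.30 ± 0.11. The IL-15 groups overlapped and the lung groups did not. By mean level the order of the 6 groups was WT naive, KO IL-15, WT IL-15, WT lung, KO naive and KO lung; WT naive stood apart from the next group, and every other neighbour in that order overlapped.

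Rbm3, the more abundant of the pair, followed a smaller version of the naive difference and a different order of states. WT naive libraries held 263, 258, 242 and 203 CPM, and KO naive libraries 401, 450.4, 525 and 451 CPM, without overlap. The KO minus WT difference was 0.90 ± 0.12 log2 units, or 1.86-fold. Under IL-15 the values were 648, 698, 573 and 577 CPM in WT and 483, 562, 509 and 634 CPM in KO, overlapping, with a difference of −0.20 ± 0.12. In lung they were 382, 270, 353 and 292 CPM in WT and 344, 348, 423 and 360 CPM in KO, again overlapping, with 0.19 ± 0.13. WT naive was lowest and apart from the next group, and the highest levels were those under IL-15 rather than in lung. Per kilobase of all annotated exons, Rbm3 averaged 51.4 CPM per kb and Cirbp 11.8 in WT naive cells, and 97.2 and 46.6 in KO naive cells. That length pools every annotated form, and the forms expressed were not measured, so this scale compares genes only roughly.

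Hnrpdl had the steepest climb across groups, 6.21-fold from the lowest to the highest group mean. It stood at 53.9, 42.0, 38.8 and 38.4 CPM in WT naive libraries and at 90.9, 118, 126 and 114 CPM in KO naive libraries, a difference of 1.35 ± 0.12 log2 units without overlap. IL-15 values were 181, 189, 181 and 163 CPM in WT and 159, 163, 183 and 174 CPM in KO. Lung values were 217, 253, 326 and 279 CPM in WT and 252, 244, 262 and 268 CPM in KO. WT and KO overlapped under IL-15 (−0.09 ± 0.12) and in lung (−0.07 ± 0.13), and WT naive, KO naive, the IL-15 pair and the lung pair formed 4 steps with no overlap between neighbours other than within a pair.

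The DBHS partners Sfpq and Nono both had their lowest group mean in KO naive cells. For Nono that mean, 278 CPM, was close to those of KO lung (279 CPM) and WT lung (283 CPM). By median, Nono in KO naive cells (289.5 CPM) was above KO lung (281 CPM) and WT lung (287 CPM). Sfpq stood at 386, 419, 388 and 384 CPM in WT naive libraries and at 252, 202, 193 and 192 CPM in KO naive libraries, so every KO library was lower, and the difference was −0.94 ± 0.09 log2 units, 1.92-fold. Under IL-15 it read 394, 350.1, 373 and 380.1 CPM in WT and 372, 364, 341 and 365 CPM in KO, which overlapped, with −0.07 ± 0.09. In lung it read 367, 426, 446 and 414 CPM in WT and 335, 311, 274 and 330 CPM in KO, lower in KO without overlap, with −0.40 ± 0.11. This lung value did not pass the threshold in edgeR and passed it in 5 of 17 alternatives.

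Nono stood at 320.4, 295, 322 and 333 CPM in WT naive libraries and at 199.8, 307, 272 and 332 CPM in KO naive libraries, which overlapped; the lowest value belonged to the shallow KO naive replicate 1, and the difference was −0.22 ± 0.13 with it and −0.08 without it. Its WT and KO libraries also overlapped under IL-15 (347 to 424 CPM in WT, 357 to 449 CPM in KO) and in lung (268 to 291 CPM in WT, 266 to 289 CPM in KO). Nono varied least, 1.46-fold between the lowest and highest group mean, and Sfpq came next at 1.97-fold. In WT naive cells the partners stood at 83.2 (Sfpq) and 72.6 (Nono) CPM per kb, and in KO naive cells at 44.2 and 63.5 CPM per kb. Their order was thus exchanged on this rough scale.

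The helicases Ddx46 and Upf1 were, like Hnrpdl, higher in KO naive cells. Ddx46 stood at 57.4, 51.5, 48.7 and 50.1 CPM in WT naive libraries and at 95.9, 91.9, 92.4 and 99.4 CPM in KO naive libraries, a difference of 0.84 ± 0.09 log2 units. It was tight within groups, with an SD of 3.83 CPM in WT naive and 3.50 CPM in KO naive cells. Under IL-15 it ran from 121 to 141 CPM in WT and from 126 to 142 CPM in KO, and in lung from 125 to 165 CPM in WT and from 132 to 163 CPM in KO, overlapping in both. Upf1 stood at 43.8, 27.2, 23.2 and 35.8 CPM in WT naive libraries and at 105, 83.4, 79.3 and 80.2 CPM in KO naive libraries, a difference of 1.39 ± 0.17, or 2.62-fold, without overlap. With an offset for exon length and GC content, that value was 1.07. Under IL-15 Upf1 ran from 167 to 179 CPM in WT and from 148 to 224 CPM in KO, and in lung from 123 to 184 CPM in WT and from 161 to 181 CPM in KO; KO libraries spread wider than WT ones under IL-15, and both pairs overlapped.

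The genotype differences of the 7 genes were set side by side in the 3 states.

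**Figure D2:**
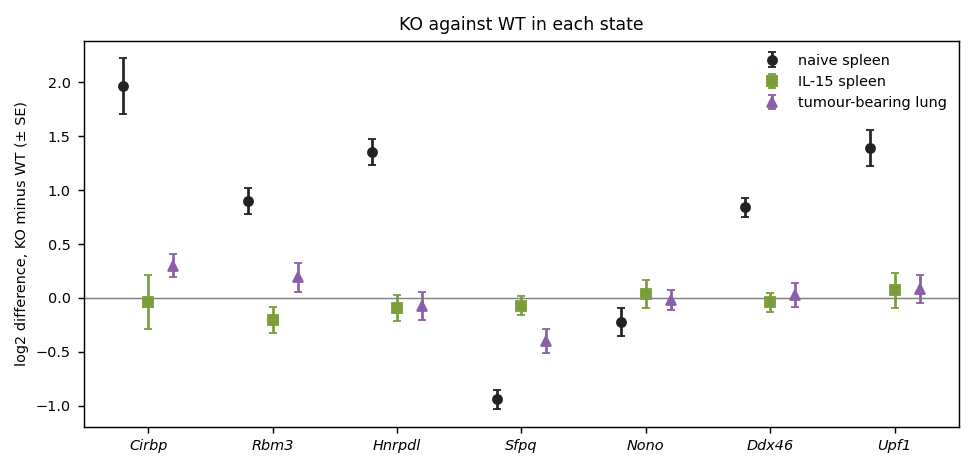
KO minus WT difference in log2 units (± SE from edgeR) for each gene in naive spleen (black circles), IL-15-treated spleen (green squares) and tumour-bearing lung (purple triangles). The naive values spread from −0.94 to 1.96, and the values under IL-15 lie between −0.20 and 0.07.

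In naive spleen 5 of the 7 genes were called higher and 1 lower in KO cells at an adjusted p under 0.05 in edgeR, where 11.1% of 13344 genes tested were called higher and 9.22% lower. Under IL-15 none of the 7 was called, with 0.135% of genes called in either direction, and in lung none was called, with 0.625% called among 13129 genes. Set against its value under IL-15, the KO effect in naive cells was called higher for 5 genes (1.06% of all genes) and lower for Sfpq (0.472%). Set against its value in lung, it was called higher for the same 5 genes (0.981% of 14275 genes) and lower for none (0.168%). Libraries of WT and KO did not overlap for 6 of the 7 in naive spleen (over all genes, 10.4% higher and 9.88% lower in KO), for none under IL-15 (2.07 and 1%) and for 2, Cirbp and Sfpq, in lung (4.21 and 4.55%). Since these contrasts led to the choice of the genes, the counts carry no weight of their own. The differences of the KO effect, naive minus IL-15, were 2.00 for Cirbp, 1.10 for Rbm3, 1.44 for Hnrpdl, −0.88 for Sfpq, −0.26 for Nono, 0.89 for Ddx46 and 1.32 for Upf1. Naive minus lung they were 1.68, 0.73, 1.45, −0.51, −0.17, 0.84 and 1.34 in the same order of genes, from the same naive libraries. The naive minus lung call of Rbm3 held in 19 of 34 alternatives, and Sfpq, not called in edgeR, was called in 6 of 34, among them DESeq2, voom and an offset for exon length and GC content.

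Among the WT naive libraries, replicate 1 was the highest for exactly the 5 genes that were higher in KO cells, Cirbp, Rbm3, Hnrpdl, Ddx46 and Upf1. Mitochondrial transcripts made up 4.89 to 6.31% of counts in WT naive and 1.18 to 9.28% in KO naive libraries, with the lowest share in KO naive replicate 1, and 3.17 to 6.14% in WT lung and 8.49 to 10.7% in KO lung libraries. With mitochondrial genes removed, the naive KO minus WT difference was 1.95 for Cirbp, 0.88 for Rbm3 and −0.96 for Sfpq. The KO minus WT difference in naive spleen also moved with gene length over all tested genes. Its median was −0.30 log2 units for 1739 genes with under 1500 exon bases and 0.23 for 2111 genes with 8000 or more. The members have 2604 (Cirbp), 4375 (Nono), 4618 (Upf1), 4698 (Rbm3), 4743 (Sfpq), 4818 (Hnrpdl) and 7295 (Ddx46) exon bases, and the median was −0.07 in the class of 1500 to 4000 bases, which holds Cirbp, and 0.06 in that of 4000 to 8000 bases, which holds the other 6. With the length and GC offset Rbm3 was at 1.15 in place of 0.90.

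The effect of state was tested as the average of WT and KO, a contrast in which both genotypes weigh equally. It is not the genotype contrast that led to the choice of genes. The comparisons with naive spleen share their naive libraries with that contrast, and the tests were chosen with earlier results of these data known. All 7 genes rose with IL-15 against naive spleen in edgeR, where 30.2% of genes tested rose and 30.4% fell. Upf1 rose by 1.67 ± 0.12 log2 units (edgeR adjusted p = 9.11e-10), Hnrpdl by 1.24 ± 0.09 (adjusted p = 6.61e-10) and Ddx46 by 0.85 ± 0.06 (adjusted p = 1.41e-09). Rbm3 rose by 0.74 ± 0.09 (edgeR adjusted p = 6.17e-07) and Cirbp by 0.57 ± 0.18 (adjusted p = 0.00997). Nono rose by 0.34 ± 0.09 (edgeR adjusted p = 0.00341) and Sfpq by 0.28 ± 0.07 (adjusted p = 0.00141). With the length and GC offset Sfpq was at 0.12 (adjusted p = 0.119), Nono at 0.21 and Ddx46 at 0.56.

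Averages conceal unequal values in the genotypes, which share their naive libraries with the genotype contrast and are given without a test. Cirbp differed between IL-15 and naive by 1.65 ± 0.23 log2 units in WT and by −0.36 ± 0.22 in KO cells, and Rbm3 by 1.37 and 0.26. Hnrpdl differed by 2.04 in WT and 0.59 in KO cells, Ddx46 by 1.38 and 0.47, and Upf1 by 2.41 and 1.08. Sfpq showed the reverse, −0.08 in WT and 0.78 in KO cells, and Nono 0.30 and 0.55. Both genotypes' values contain the naive libraries, so the gap between them restates the genotype differences given above.

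In lung against naive spleen, averaged over genotype, 5 of the 7 genes rose in edgeR, where 33.4% of 14275 genes rose and 25.3% fell. Hnrpdl rose by 1.91 ± 0.09 log2 units (edgeR adjusted p = 3.55e-15), Upf1 by 1.65 ± 0.12 (adjusted p = 9.96e-12) and Cirbp by 1.09 ± 0.16 (adjusted p = 2.44e-06). Ddx46 rose by 1.05 ± 0.07 (edgeR adjusted p = 1.81e-12) and Sfpq by 0.32 ± 0.07 (adjusted p = 0.000236). The values of Rbm3 (0.06 ± 0.09, edgeR adjusted p = 0.586) and Nono (−0.08 ± 0.08, adjusted p = 0.422) did not pass. With the length and GC offset Upf1 was at 1.04, Sfpq at 0.20, and Rbm3 passed at 0.26 (edgeR adjusted p = 0.0173). By genotype, lung minus naive was 1.93 in WT and 0.25 in KO cells for Cirbp, 2.64 and 1.19 for Hnrpdl, 2.32 and 0.98 for Upf1, 1.47 and 0.63 for Ddx46, and 0.43 and −0.31 for Rbm3. For Sfpq it was 0.07 ± 0.1 in WT and 0.58 ± 0.1 in KO cells, so its averaged rise came mainly from KO cells. For Nono it was −0.16 and 0.01.

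Lung against IL-15 spleen gave no weight to the naive libraries, though they were in the fit and shared its estimate of the spread. Here WT and KO values had the same sign for every member except Sfpq (WT 0.14, KO −0.20). The sign says little for Upf1 (WT −0.09 ± 0.16, KO −0.1 ± 0.16) and Ddx46 (WT 0.09 ± 0.09, KO 0.15 ± 0.09). Hnrpdl rose by 0.59 ± 0.09 log2 units (edgeR adjusted p = 2.01e-06; WT 0.59, KO 0.60) and Cirbp by 0.45 ± 0.16 (adjusted p = 0.0183; WT 0.28, KO 0.61), against 30.5% of genes that rose. Rbm3 fell by 0.76 ± 0.09 (edgeR adjusted p = 5.77e-08; WT −0.94, KO −0.57) and Nono fell by 0.50 ± 0.08 (adjusted p = 9.12e-06; WT −0.46, KO −0.54), against 27.7% that fell. The cold-inducible pair thus moved in opposite directions between these states. Sfpq (−0.03), Ddx46 (0.12) and Upf1 (−0.09) did not pass in edgeR, with adjusted p values of 0.723, 0.116 and 0.506. With the length and GC offset Rbm3 was at −0.45, Ddx46 passed at 0.36 and Upf1 at −0.32 (edgeR adjusted p of 5.12e-06 and 0.0011).

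**Figure D3:**
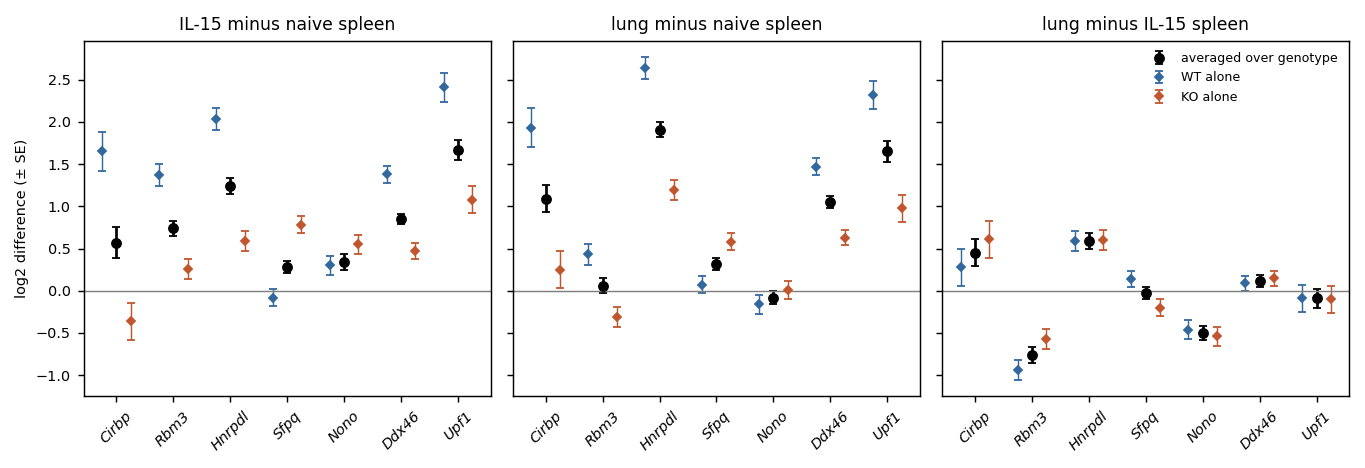
Differences between states in log2 units (± SE from edgeR) for each gene, averaged over genotype (black) and in WT (blue) and KO (orange) cells alone. In the comparisons with naive spleen WT and KO values part, for Cirbp 1.65 and −0.36 with IL-15, and in lung minus IL-15 they have the same sign for all but Sfpq.

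Related genes were counted from lists of companions of the 7, so as to place each member beside its pathway. Over the 6 RNA-binding lists together, 128 genes were tested; in naive spleen 27 were higher and 23 lower in KO cells in edgeR, with a median of 0.02 log2 units against −0.001 over all genes, of which 11.1% were called higher and 9.22% lower. Under IL-15 none of the 128 passed in edgeR, none had an unadjusted p under 0.05, and none passed in DESeq2 or voom. The IL-15 libraries were fitted together with the naive ones and shared their estimate of the spread, whereas the lung libraries were fitted apart. A lack of calls under IL-15 does not show that levels were equal. Of the 7 members, none was called under IL-15 in any of 26 alternatives, which include a fit of the compared groups alone. In lung 1 passed in edgeR, 18 had an unadjusted p under 0.05, and 3 passed in DESeq2 and 3 in voom. The 1 gene was Malat1, an abundant nuclear noncoding RNA, named after its values were seen, which was higher in KO lung by 0.80 ± 0.14 (edgeR adjusted p = 0.026) and passed in 9 of 17 alternatives.

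**Figure D4:**
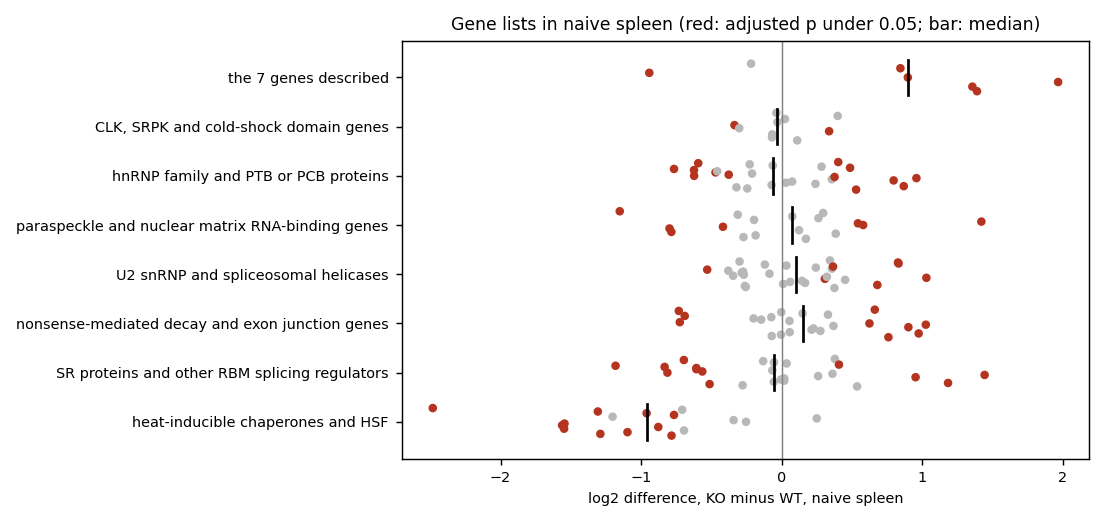
KO minus WT difference in naive spleen, in log2 units, of the 7 genes and of each companion list; points are genes, red at an adjusted p under 0.05 in edgeR, and black bars are list medians. The RNA-binding lists spread to both sides with medians between −0.06 and 0.15, and the chaperone list has a median of −0.96.

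Of 23 NMD and exon junction genes, partners of Upf1, 6 rose and 3 fell in KO naive cells, with a median of 0.15. For this list and those that follow, the naive share over all genes was 11.1% higher and 9.22% lower. Smg5, which helps dephosphorylate UPF1, rose by 1.02 ± 0.13 (edgeR adjusted p = 5.79e-05), from 27.8 ± 3.32 to 57.7 ± 8.78 CPM (SD, n = 4). Upf2, which binds UPF1 and bridges it to the exon junction complex, rose by 0.76 ± 0.14 (edgeR adjusted p = 0.00166). Smg1, the kinase that phosphorylates UPF1, rose by 0.90 ± 0.26 (edgeR adjusted p = 0.0193). With the length and GC offset none of the 23 fell, and 1 fell without WT naive replicate 1, WT naive replicate 3 or KO naive replicate 2.

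Among 17 paraspeckle and nuclear matrix genes, companions of Sfpq and Nono, 3 rose and 4 fell in KO naive cells, with a median of 0.07. Tardbp fell by 0.80 ± 0.10 (edgeR adjusted p = 5.75e-05) and Rbm14, needed to build paraspeckles, fell by 0.79 ± 0.14 (adjusted p = 0.000813). Neat1, the RNA on which paraspeckles form, was at 0.38 ± 0.30 and did not pass (edgeR adjusted p = 0.394).

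Of 25 hnRNP and PTB or PCB genes, the family of Hnrpdl, 7 rose and 6 fell in KO naive cells, with a median of −0.06, and 4 rose without WT naive replicate 3. Hnrnpd, which encodes AUF1 and is a close relative of Hnrpdl, rose by 0.80 ± 0.13 (edgeR adjusted p = 0.000464), from 134 ± 29.0 to 237 ± 20.2 CPM. Hnrnpul1 rose by 0.87 ± 0.13 (edgeR adjusted p = 0.000366) and Hnrnpa2b1 fell by 0.62 ± 0.11 (adjusted p = 0.00128). Of 28 U2 snRNP and spliceosomal helicase genes, among which Ddx46 works, 6 rose and 1 fell, with a median of 0.10, and 6 fell without WT IL-15 replicate 2. The helicases Ddx23, Dhx38 and Dhx8, which act at later steps of splicing than Ddx46, rose by 1.03 ± 0.17, 0.83 ± 0.13 and 0.83 ± 0.16 (edgeR adjusted p of 0.000511, 0.000524 and 0.00151).

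Among 25 SR proteins and other splicing regulators 4 rose and 8 fell in KO naive cells. The splicing coactivators Srrm2 and Srrm1 rose by 1.44 ± 0.23 and 1.18 ± 0.19 (edgeR adjusted p = 0.000524 for both), and Srsf10, a splicing repressor when dephosphorylated, fell by 0.83 ± 0.13 (adjusted p = 0.00045). Of 10 CLK, SRPK and cold-shock domain genes, which include the temperature-sensitive kinases that phosphorylate SR proteins, Clk4 rose by 0.34 ± 0.11 and Clk3 fell by 0.34 ± 0.11 (edgeR adjusted p of 0.0373 and 0.0383). Both calls of this list were lost when WT naive replicate 1, 2 or 4 or KO naive replicate 1, 2 or 4 was left out.

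Heat-inducible chaperones, which respond to temperature in the direction opposite to Cirbp and Rbm3, were followed beside them. Of 17 genes in the list of such chaperones and HSF genes, 11 fell and none rose in KO naive cells in edgeR. Their median was −0.96 log2 units, and over all genes 9.22% were called lower. Not called were Hspa1a (−0.71), Hspa1b (−1.20), Hspb1 (−0.70) and Bag3 (−0.255), and the HSF genes Hsf1 (0.25) and Hsf2 (−0.34). Hsph1, an HSP110 chaperone, fell by 2.48 ± 0.25 (edgeR adjusted p = 9.56e-06), from 254 ± 93.4 to 46.8 ± 19.6 CPM, Stip1, the adaptor between HSP70 and HSP90, fell by 1.55 ± 0.16 (adjusted p = 1.36e-05), and Hspa8, the constitutive HSP70, fell by 1.56 ± 0.17 (adjusted p = 1.46e-05). Under IL-15 none of the 17 passed in edgeR, in DESeq2 or in voom, and none had an unadjusted p under 0.05. Here too the spread was shared with the naive libraries, and a lack of calls does not show that levels were equal. In lung 10 fell and none rose in edgeR, with a median of −1.0, where 0.625% of all genes were called in either direction. Among the 10 were Hsph1 at −1.87 ± 0.28 (edgeR adjusted p = 0.00646) and Stip1 at −1.44 ± 0.18 (adjusted p = 0.00235).

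The summed level of the 17 chaperone and HSF genes was 6771 to 10630 CPM in WT naive and 3635 to 3847 in KO naive libraries. It was 5235 to 5790 in WT IL-15, 5155 to 6000 in KO IL-15, 13650 to 15770 in WT lung and 6578 to 9642 in KO lung libraries. Hspa8 alone averaged 4327 CPM in WT naive and 1495 CPM in KO naive libraries. Among WT naive libraries the sum was lowest, 6771 CPM, in replicate 1, the library with the highest Cirbp and Rbm3, and 8891 to 10630 in the other 3. Within the lung, where WT sums were all above KO sums, Rbm3 overlapped between genotypes and Cirbp was higher in KO libraries by 0.30. Across states the levels did not run in step. WT lung libraries had the highest chaperone sums and Cirbp at 113 to 124 CPM, above every WT naive library. Whether chaperones and cold-inducible mRNAs are linked was not tested.

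**Figure D5:**
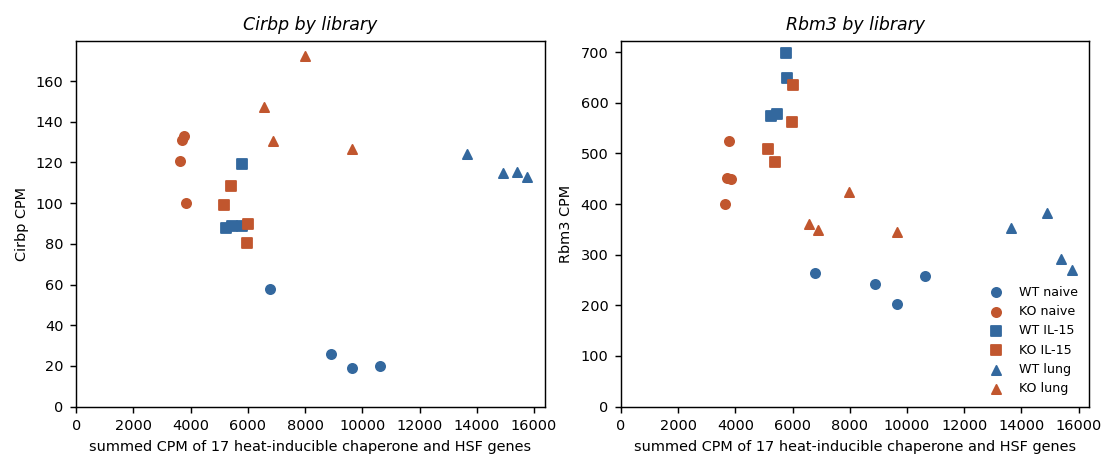
Cirbp (left) and Rbm3 (right) in CPM against the summed CPM of the 17 heat-inducible chaperone and HSF genes, 1 point per library, coloured by genotype (blue WT, orange KO) and shaped by state. KO naive libraries lie at 3635 to 3847 CPM of chaperones with high Cirbp, WT naive libraries at 6771 to 10630 with low Cirbp, and WT lung libraries at 13650 to 15770 with Cirbp at 113 to 124 CPM.

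The companions were counted across states as well. With IL-15, averaged over genotype, 66 of the 128 RNA-binding companions rose and 18 fell in edgeR, with a median of 0.25 log2 units against −0.012 over all genes, of which 30.2% rose and 30.4% fell. In the SR list 15 of 25 rose and none fell in edgeR, while 1 fell in voom, 1 without WT IL-15 replicate 2 and 5 with the length and GC offset. With that offset the U2 list had 6 higher and 9 lower in place of 10 and 5. The paraspeckle list had 6 higher and 4 lower in place of 10 and 2. In the hnRNP list and in the NMD list 7 fell with the offset in place of 4, so the balance of rises and falls depended on the processing. Srrm2 rose by 2.55 ± 0.17 (edgeR adjusted p = 3.46e-10), Pnn, a nuclear speckle protein, by 1.39 ± 0.09 (adjusted p = 2.91e-10) and Neat1 by 2.60 ± 0.22 (adjusted p = 9.62e-09). Hnrnpa1 rose by 1.2 ± 0.09 (edgeR adjusted p = 1.19e-09), Hnrnpu by 0.90 ± 0.08 (adjusted p = 1.2e-08) and Ddx23 by 1.17 ± 0.12 (adjusted p = 8.1e-08).

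In lung against naive spleen 66 of 128 rose and 22 fell in edgeR (median 0.31, all genes 0.061, with 33.4% of all genes higher and 25.3% lower), including 21 of 25 in the SR list, with a median of 1.02. Clk1 rose by 2.67 ± 0.11 (edgeR adjusted p = 7.49e-16), Clk4 by 1.82 ± 0.08 (adjusted p = 1.94e-15) and Neat1 by 3.82 ± 0.26 (adjusted p = 3.87e-12). In lung against IL-15 spleen where 30.5% of all genes were higher and 27.7% lower, the hnRNP list had 14 of 25 lower and 4 higher, the CLK list had 8 of 10 higher and none lower in edgeR, and all 17 chaperone genes were higher.

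Genes whose profile over the 24 libraries was nearest to that of the cold-inducible pair were ranked by the root mean square difference of mean-centred log2 CPM among 8172 genes. For Cirbp, whose own profile had a root mean square of 0.84, the nearest were Itpr2 (0.42), Cc2d1b (0.43), Dnajc27 (0.43), Smg5 (0.44) and Furin (0.44). Itpr2, an IP3 receptor of the endoplasmic reticulum, averaged 43.1 CPM in WT naive, 103 in KO naive, 89.7 in WT IL-15 and 132 in WT lung cells. For Rbm3, at 0.49, the nearest were Cenpb (0.23), Hnrnpd (0.24), Slc25a1 (0.25), Pecam1 (0.26) and Vars (0.26). Cenpb, a centromere protein, averaged 63.6 CPM in WT naive, 132 in KO naive, 137 in WT IL-15 and 81.5 in WT lung cells. The 2 sets shared no gene.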

How the data were processed

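Poly(A) RNA from 24 mouse NK cell libraries was measured, per the labels' protocols with the Qiagen RNeasy Plus Micro and NEBNext Ultra II Directional kits. The authors deposited expected counts per gene, which need not be whole (5.47% were not). The submitters' processing notes name RSEM 1.2.30, STAR 2.5.2a and cutadapt 1.9 and the genome build GRCm38, with settings and annotation not given in the sources used here. There were 290 symbols that stood on more than 1 row, none of them a member.

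Rounded counts were filtered by filterByExpr, scaled by TMM and tested by the quasi-likelihood F test of edgeR 4.0.16 in R 4.3.3, adjusted by Benjamini-Hochberg over all genes tested, with a threshold of 0.05; all adjusted p-values are from edgeR unless named otherwise. The 16 spleen libraries, the 8 lung libraries, and all 24 for comparisons across tissues were fitted without a replicate block. SE is the log2 difference divided by the root of F. CPM uses TMM-scaled totals of all 24 libraries. Precision follows depth, 9.68 to 32.1 M counts a library. P-values measure the spread between libraries, which no source used here ties to separate animals.

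The edgeR steps were tested on simulated data.

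The members, companion lists and tests were chosen with earlier results of these data known. Named companions are, per list, up to 3 genes with the smallest p in KO against WT naive spleen and up to 2 in IL-15 against naive spleen; the text prints part of them, and some genes picked by this rule are not reported here. Nearest profiles are the 5 genes per cold-inducible member with a mean of at least 10 CPM. Exon lengths and transcripts came from GENCODE M21 (GRCm38; 98.6% of genes tested in spleen had a length), and promoters from RefSeq. Alternatives were DESeq2 1.42.0, edgeR with DESeq2's size factors, limma 3.58.1 voom with library weights, a stricter low-count filter or none, the compared groups alone or all 24 libraries, a replicate block, an offset for exon length and GC content, mitochondrial genes removed, each library left out, and both shallow libraries left out. Promoter motifs were also counted in 100-base windows.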

Additional observations from a re-analysis of the deposited data

Results flagged for a closer look

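In 4 of 42 sets of 4 libraries (7 genes in 6 groups), 1 library lay apart by more than Dixon's 95% limit for a gap to the nearest library in 4 samples; chance flags about 1 in 20 such sets. Cirbp in WT IL-15 replicate 2 stood at 119 CPM, with the other 3 libraries at 87.6 to 88.7. Sfpq in WT naive replicate 2 stood at 419 CPM, with the others at 384 to 388. In the shallow KO naive replicate 1, Sfpq stood at 252 CPM, with the others at 192 to 202, and Upf1 at 105 CPM, with the others at 79.3 to 83.4. All 4 were the highest library of their group.

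For 12 of 28 named companions the KO effect differed between naive and IL-15-treated spleen by the interaction test in edgeR, which called 1.06% of all genes higher and 0.472% lower. These companions had been named by their p in the naive comparison or in the IL-15 comparison, so the count is not independent of it. The KO effect was higher in the naive state by 1.09 log2 units for Srrm1 (edgeR adjusted p = 0.0485), 0.98 for Ddx23, 0.90 for Smg5, 0.87 for Upf2, 0.85 for Hnrnpd and 0.78 for Hnrnpul1. It was lower for Hsph1 (−2.50, edgeR adjusted p = 0.00191), Hspa8 (−1.61), Stip1 (−1.58), Chordc1 (−0.96), Rbm14 (−0.90) and Tardbp (−0.67). All 6 RNA-binding genes in the positive set had WT naive cells at their lowest group mean, which the way they were chosen favours.

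Between naive spleen and lung the KO effect differed for 5 of these companions, all higher in the naive state (0.981% of all genes were called higher). The differences were 1.01 log2 units for Ddx23, 0.94 for Dhx38, 0.89 for Smg5, 0.86 for Dhx8 and 0.71 for Hnrnpd. Of the chaperone and HSF genes, 11 of 17 fell in KO naive cells (9.22% of all genes) and 10 in KO lung (0.625% called in either direction). For the difference between these states none of 17 passed in edgeR, 2 had an unadjusted p under 0.05, 1 passed in DESeq2 and none in voom.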

How the results depend on the processing

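Among the state tests, only the following member values changed sides or sign. Sfpq, IL-15 against naive, lost its call with the length and GC offset (0.12). Rbm3, lung against naive, turned to −0.0 in voom and −0.01 without both shallow libraries, and passed at 0.26 with the offset. Lung against IL-15, Sfpq turned to 0.06 with the offset, Upf1 passed at −0.32 with it, and Ddx46 passed at 0.11 to 0.36 in voom, DESeq2, the offset, without WT lung replicate 1 and without both shallow libraries. The cause of these changes was not tested.

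Counts over all genes moved more than the members. KO naive: 1475 higher and 1230 lower; 787 lower in the compared groups alone; 942 to 1636 higher and 755 to 1711 lower with 1 library left out, lowest without WT naive replicate 3. KO IL-15: 11 higher and 7 lower; DESeq2 19 higher, all 24 libraries 18 higher, voom 30 higher and 24 lower; 7 to 16 and 6 to 9 with 1 left out. KO lung: 40 higher and 42 lower; DESeq2 140 and 128, voom 128 and 140, offset 64 and 86, no filter 68 higher; 16 to 251 and 25 to 197 with 1 left out, highest without the shallow WT lung replicate 1.

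Difference naive minus IL-15: 142 higher and 63 lower; DESeq2 476 and 219, all 24 libraries 271 and 97, voom 818 and 502, offset 105 lower; 54 to 413 and 28 to 301 with 1 left out. Difference naive minus lung: 140 higher and 24 lower; DESeq2 424 and 98, compared groups alone 63 and 8, voom 398 and 104, offset 59 lower, without both shallow libraries 359 and 147; 61 to 410 and 9 to 160 with 1 left out. The state comparisons stayed within 1.5 times: 3847 to 4244 higher and 3780 to 4247 lower for IL-15 against naive, 4585 to 4993 and 3428 to 3882 for lung against naive, and 4153 to 4634 and 3760 to 4164 for lung against IL-15, each with 1 left out.

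With the replicate number as a block, KO naive gave 1345 higher and 1113 lower, and KO IL-15 8 and 6. KO lung gave 30 and 32 under the block, and the differences 104 and 45 (naive minus IL-15) and 118 and 19 (naive minus lung). IL-15 against naive gave 4029 and 3936 with the block, lung against naive 4773 and 3563, and lung against IL-15 4301 and 3957. Cirbp in naive spleen was at 2.05 with the block and 1.96 without, and no tested state call of a member changed; the call on Rbm3 in the naive minus lung difference was lost. Of 60 same-numbered pairs, 6 had a correlation of deviations above 0.1 (range −0.19 to 0.247), and 15 correlated best with their own number. The 60 include pairs of a WT with a KO library, and each group has only 4 libraries. These correlations therefore cannot decide whether samples with the same number belong together.

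In the 100 bases before the start, 2.63% of promoters held TCCCCGCC, 24.7% a GC box, 18.9% a CCAAT box, 0.198% a heat shock element and 3.17% an E-box. The Cirbp match to TCCCCGCC, at 247 to 240 bases, lies outside these 100 bases. Precision is lowest where counts are few, and the shallow libraries held 9.68 and 9.77 M. The expected counts split reads between genes by a model, and 1 value per gene hides isoforms.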
